A study of Homo sapiens with 6 samples.

Results

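The genes described here encode the RAS-RAF-MEK-ERK cascade and its regulators, 36 genes listed by symbol, of which 35 were found among the 13244 genes of the table. No row was analysed here for HRAS. All 35 passed the filter on low counts, so that 21 positive components, 10 negative regulators and 4 kinases activated by ERK were measured. RNA-Seq counts came from 6 cultures of MOLM14, an established human AML cell line labelled with the genotype FLT3 ITD, an internal tandem duplication that keeps the receptor tyrosine kinase FLT3 active. The 3 tested cultures (replicates 7, 8 and 9) received the nicotinamide FLT3 inhibitor HSN748 at 2 nM for 24 hours, and the 3 control cultures (replicates 1, 2 and 3) received DMSO for 24 hours. All 6 carry FLT3 ITD, grew in RPMI with FBS and are cultures of 1 cell line, described by the study as biologically independent, so that the comparison says nothing of other AML cells.

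RAS proteins are small GTPases that switch on when exchange factors load them with GTP and off when GTPase-activating proteins (GAPs) speed its hydrolysis. Active RAS recruits RAF kinases, RAF phosphorylates MEK, and MEK phosphorylates ERK, which carries the signal to downstream kinases and transcription factors. In FLT3 ITD leukemia the receptor feeds this cascade through adaptors such as GRB2 and GAB2 and the phosphatase PTPN11 (SHP2), while CBL-type ubiquitin ligases mark the receptor for removal. The cascade is switched by phosphorylation, which RNA levels do not measure.

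Library totals ranged from 35277785 to 47691631 counts in HSN748-treated cells and from 38363312 to 59279430 in DMSO controls. Of 10 myeloid marker genes, 9 were in the table and CD14 was not analysed, and their summed level was 3657 to 3803 CPM (counts as a share of the library, scaled with TMM factors) in HSN748-treated cells and 1769 to 1825 CPM in DMSO controls. None of 4 T cell and 5 erythroid markers was in the table, and 2 of 5 B cell markers summed to 14.6 to 18.7 CPM in HSN748-treated cells and 50.9 to 54.7 CPM in DMSO controls. For 4 of 6 stromal or epithelial markers the sum was 599 to 665 CPM in HSN748-treated cells and 217 to 219 CPM in DMSO controls, most of it from PECAM1, which myeloid cells also express. The myeloid sum moved with the treatment, but its members did not all do so. Of them 7 passed as higher, beside 36.6% of all genes, MPO fell by 2.26 on the log2 scale and CD33 did not pass. CSF1R rose most, by 4.37, and was at 229 CPM in HSN748-treated cells and 11.1 CPM in DMSO controls. FLT3, the target of HSN748, was at 1150.0 CPM in HSN748-treated cells and 396 CPM in DMSO controls, and LYZ at 1267 CPM in HSN748-treated cells and 752 CPM in DMSO controls, so that these 2 genes made up most of the sum. Of the B cell markers, PAX5 was lower (-1.69) and CD79A, which averaged under 1 CPM in both groups, was higher (1.35). The part of these markers in the results below was not tested. Such counts are relative to all RNA in a library, and fewer cells of a type cannot be told apart from less RNA per cell.

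Both regulators of the cascade and 2 of its GTPases changed strongly under HSN748. CBLB, GAB2, GAB3, RASGRP4, SOS2, RASAL3 and RRAS rose by more than 1 on the log2 scale, and CNKSR2, RASGRP2, PTPN11 and RRAS2 fell by more than 1. The RAF, MEK and ERK genes measured lay between -0.10 and 0.36. A gene passed at an adjusted p below 0.05 (edgeR's quasi-likelihood test, Benjamini-Hochberg over all genes), and "called" adds a log2 fold change of HSN748 over DMSO past 1. Of the 35 genes 15 passed as higher and 8 as lower, which left 12 that did not pass. Among all 13084 genes tested, 73.1% passed (36.6% higher and 36.5% lower), against 65.7% of the listed genes. The 11 called genes, 7 higher and 4 lower, are 31.4% of the list, beside 31.9% of all genes (17.0% higher and 14.9% lower). The 3 HSN748 cultures lay wholly above or below the 3 DMSO cultures for 24 of the 35 genes, beside 75.4% of all genes. The list as a whole was therefore near the background, and the results lie in which members changed.

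**Figure D1:**
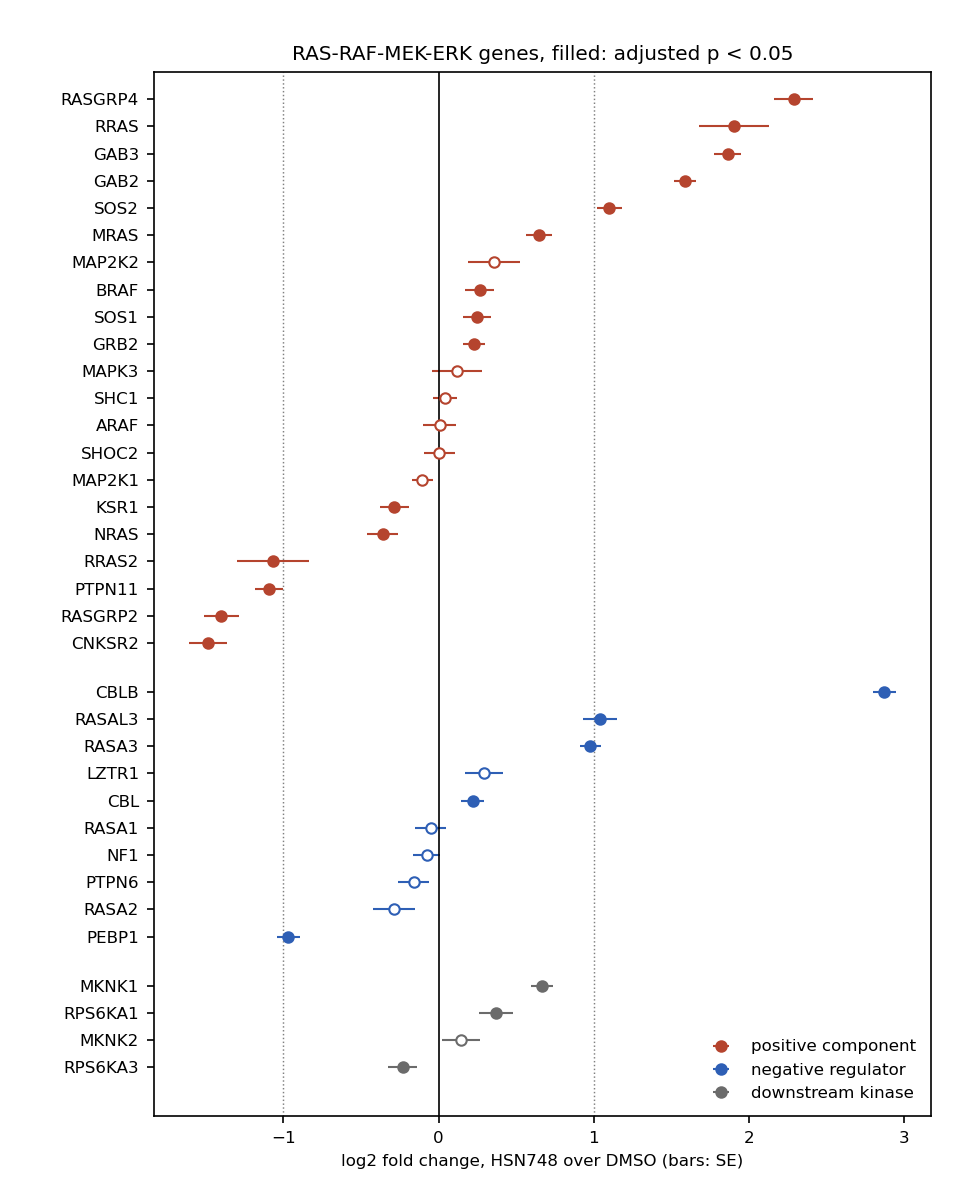
Log2 fold change of HSN748 over DMSO (x axis, bars are the standard error) for 35 genes, split into positive components, negative regulators and downstream kinases, with filled points at an adjusted p below 0.05 and dotted lines at a log2 fold change of 1 in either direction. CBLB at 2.87 and CNKSR2 at -1.49 mark the ends, and MAP2K1, ARAF and SHOC2 lie near 0.

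The listed positive components and negative regulators did not divide by direction. Feedback inhibitors of the cascade, such as SPRY4, are not in the list. They are given below with the outputs of ERK, of which 12 of 14 were lower. Among 21 positive components 9 passed as higher and 6 as lower, with a median log2 fold change of 0.12. Among 10 negative regulators 4 passed as higher and 1 as lower, with a median of 0.08. The median over all genes tested was 0.0066. Called genes numbered 9 of 21 positive components (5 higher and 4 lower) and 2 of 10 negative regulators (both higher). Over all genes tested 31.9% were called, 17.0% higher and 14.9% lower, while 36.6% passed as higher and 36.5% as lower. Without DMSO replicate 3 the median of the negative regulators was 0.046, and without HSN748 replicate 9 that of the positive components was 0.052. Zero change depends on the scaling, since scaling to 11 reference genes, of which 6 passed as lower and 1 as higher, moved the median of all genes to 0.48 and upper-quartile factors moved it to 0.21. The medians of the positive components and of the negative regulators were then 0.60 and 0.56 with the reference genes.

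The largest change was in CBLB, which encodes a ubiquitin ligase of activated receptors and lies on chromosome 3 from 105655461 to 105869401 in the deposited positions. It was at 174, 178 and 178 CPM in HSN748-treated cells, against 25.6, 23.8 and 22.9 CPM in DMSO controls. The lowest treated culture was thus far above the highest control. The log2 fold change was 2.87 (SE 0.07 and adjusted p = 2.3e-08), which is 7.33-fold, and 319 genes of the 13084 had a larger one. CBL, its close relative, was at 206, 193 and 205 CPM in HSN748-treated cells and at 176, 183 and 159.8 CPM in DMSO controls, a log2 fold change of 0.22 (SE 0.07 and adjusted p = 0.025). The CBL groups did not overlap, but CBL did not pass when DMSO replicate 1 (adjusted p = 0.068), DMSO replicate 3 (0.061), HSN748 replicate 7 (0.062) or HSN748 replicate 9 (0.056) was left out. Per kilobase, CBL was 0.808 times CBLB in HSN748-treated cells and 5.09 times CBLB in DMSO controls. This ratio is taken within each library and does not depend on scaling. In log2 it was -0.31 ± 0.07 in HSN748-treated cells and 2.35 ± 0.09 in DMSO controls (SD, n = 3 each).

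The sequences of 250 bases before the RefSeq start (GRCh38.p14) are shown for CBLB and CNKSR2, the ends of the range, with CG dinucleotides, the sites of DNA methylation, in capitals. Both starts equal those of the deposited table.
CBLB, chr3:105869402-105869651, minus strand: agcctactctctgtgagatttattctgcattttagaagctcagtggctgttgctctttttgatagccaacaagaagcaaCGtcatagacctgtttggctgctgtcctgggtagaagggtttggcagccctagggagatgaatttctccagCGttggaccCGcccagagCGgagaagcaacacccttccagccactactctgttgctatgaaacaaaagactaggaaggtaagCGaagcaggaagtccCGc
CNKSR2, chrX:21374168-21374417, plus strand: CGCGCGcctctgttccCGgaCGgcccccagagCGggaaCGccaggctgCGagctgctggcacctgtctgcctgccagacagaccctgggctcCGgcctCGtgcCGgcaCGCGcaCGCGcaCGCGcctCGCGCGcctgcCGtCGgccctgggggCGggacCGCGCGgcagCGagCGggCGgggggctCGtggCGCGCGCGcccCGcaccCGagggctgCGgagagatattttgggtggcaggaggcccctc
The CBLB window held 6 CG dinucleotides at 50% G and C, and 41.1% of 35116 RefSeq promoter windows held as few or fewer. The CNKSR2 window held 37 at 78.0% G and C, and 4.0% of windows held as many or more. Of the listed genes 31 matched a window, with a median of 20 CG dinucleotides and a range of 4 to 51, beside a median of 11 over all windows. The same windows were searched on both strands for motifs of factors downstream of FLT3 and ERK. The ETS core CCGGAA was in 4 of 31 (14.5% of all windows), the E-box CACGTG in 3 (6.34%), the forkhead motif TGTTTAC in 2 (2.98%), and the AP-1 motif TGACTCA (4.2%) and the STAT motif TTCNNNGAA (6.57%) in 0. Neither printed window held any of them.

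Exchange factors, which load RAS-family proteins with GTP, changed in both directions. RASGRP4, a diacylglycerol-responsive exchange factor for RAS found mainly in myeloid and mast cells, lies on chromosome 19 from 38409058 to 38426305. It was at 25.1, 26.1 and 29.3 CPM in HSN748-treated cells, against 5.69, 4.65 and 6.12 CPM in DMSO controls. Its log2 fold change was 2.29 (SE 0.13 and adjusted p = 5.7e-07), or 4.89-fold. Its family member RASGRP2, which acts mainly on RAP1 and lies on chromosome 11 from 64726911 to 64745456, was at 25.5, 22.3 and 22.9 CPM in HSN748-treated cells and at 67.5, 52.9 and 66.5 CPM in DMSO controls. With a log2 fold change of -1.40 (SE 0.11 and adjusted p = 5.5e-06) it fell in each treated culture below all controls. The 2 genes came to a near equal level, since per kilobase RASGRP2 was 1.12 times RASGRP4 in HSN748-treated cells and 14.4 times RASGRP4 in DMSO controls. RASGRP4 shares 31 of its 3218 exon bases with FAM98C on the opposite strand, which had a log2 fold change of 1.11, and the strand setting of the counting is not known here.

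SOS1 and SOS2 are the exchange factors that GRB2 brings to activated receptors. SOS2, on chromosome 14 from 50117132 to 50231578, was at 101, 110.0 and 102 CPM in HSN748-treated cells, against 48.4, 52.7 and 45.2 CPM in DMSO controls. It rose by 1.10 on the log2 scale (SE 0.08 and adjusted p = 3.2e-06). SOS1 was at 93.5 ± 3.65 CPM in HSN748-treated cells and 78.7 ± 8.21 CPM in DMSO controls (SD, n = 3 each), a log2 fold change of 0.25 (adjusted p = 0.03). SOS1 did not pass without DMSO replicate 1 (adjusted p = 0.08), DMSO replicate 3 (0.068) or HSN748 replicate 8 (0.079). SOS1 was 0.592 times SOS2 per kilobase in HSN748-treated cells and 1.07 times SOS2 in DMSO controls, so that their order turned round.

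**Figure D2:**
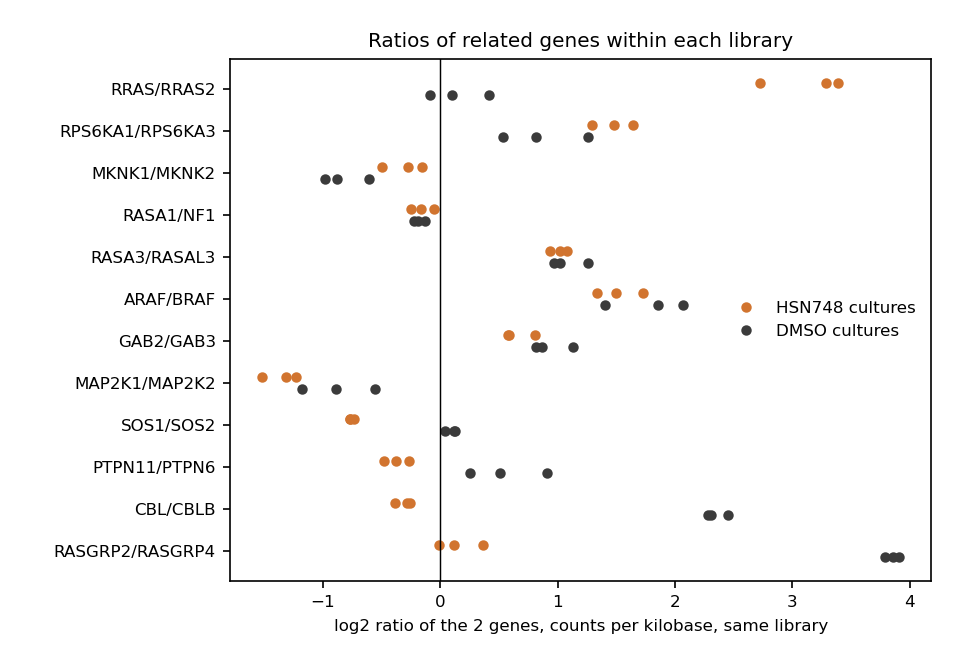
Log2 ratio of the 2 genes of each pair (x axis, counts per kilobase in the same library) for 12 pairs, 1 dot per culture, with HSN748 cultures drawn above DMSO cultures. The RASGRP2/RASGRP4 dots lie at -0.01 to 0.37 in HSN748-treated cells and at 3.79 to 3.91 in DMSO controls, and 3 pairs overlap.

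Adaptors and docking proteins carry the signal from the receptor to the exchange factors. GAB2 and GAB3, docking proteins that bind PTPN11, rose together. GAB2, on chromosome 11 from 78215290 to 78417820, was at 198, 201 and 220.2 CPM in HSN748-treated cells, against 67.6, 67.5 and 70.5 CPM in DMSO controls, a log2 fold change of 1.59 (SE 0.07 and adjusted p = 1.9e-07). GAB3, on chromosome X from 154675250 to 154751566, was at 102, 104 and 97.1 CPM in HSN748-treated cells, against 28.7, 29.7 and 24.8 CPM in DMSO controls, a log2 fold change of 1.86 (SE 0.09 and adjusted p = 2.3e-07). The treated cultures of both genes lay above every control by a wide margin. GRB2, the adaptor that links receptors to SOS proteins, was the second most abundant of the listed genes per length in DMSO controls. It averaged 375 ± 24.9 CPM in HSN748-treated cells and 320.3 ± 4.41 CPM in DMSO controls (SD, n = 3 each), a log2 fold change of 0.23 (adjusted p = 0.019), and did not pass without DMSO replicate 1 (adjusted p = 0.08) or HSN748 replicate 9 (0.057). SHC1, which couples receptors to GRB2, had a log2 fold change of 0.04 and did not pass, but passed with upper-quartile factors at 0.25 (adjusted p = 0.02) and with the reference genes at 0.52 (adjusted p = 2.4e-04). It shares 328 of its 3610 exon bases with a gene on the opposite strand.

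PTPN11, the phosphatase SHP2 through which many receptors activate RAS, lies on chromosome 12 from 112418947 to 112509918. It was at 278, 294 and 286 CPM in HSN748-treated cells, against 599, 678 and 553 CPM in DMSO controls. Every treated culture was below every control, and expression fell by 1.09 on the log2 scale (SE 0.09 and adjusted p = 6.0e-06). PTPN6, the related phosphatase SHP1, which restrains signaling in blood cells, was at 148 ± 9.24 CPM in HSN748-treated cells and 166 ± 21.1 CPM in DMSO controls (SD, n = 3 each), a log2 fold change of -0.16 that did not pass (adjusted p = 0.18), although without DMSO replicate 2 it was -0.25 and passed (adjusted p = 0.018). PTPN11 was 0.772 times PTPN6 per kilobase in HSN748-treated cells and 1.47 times PTPN6 in DMSO controls. RefSeq names 5 pseudogenes of PTPN11, none of them a row of the table, and reads shared with such copies could have been counted either way.

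**Figure D3:**
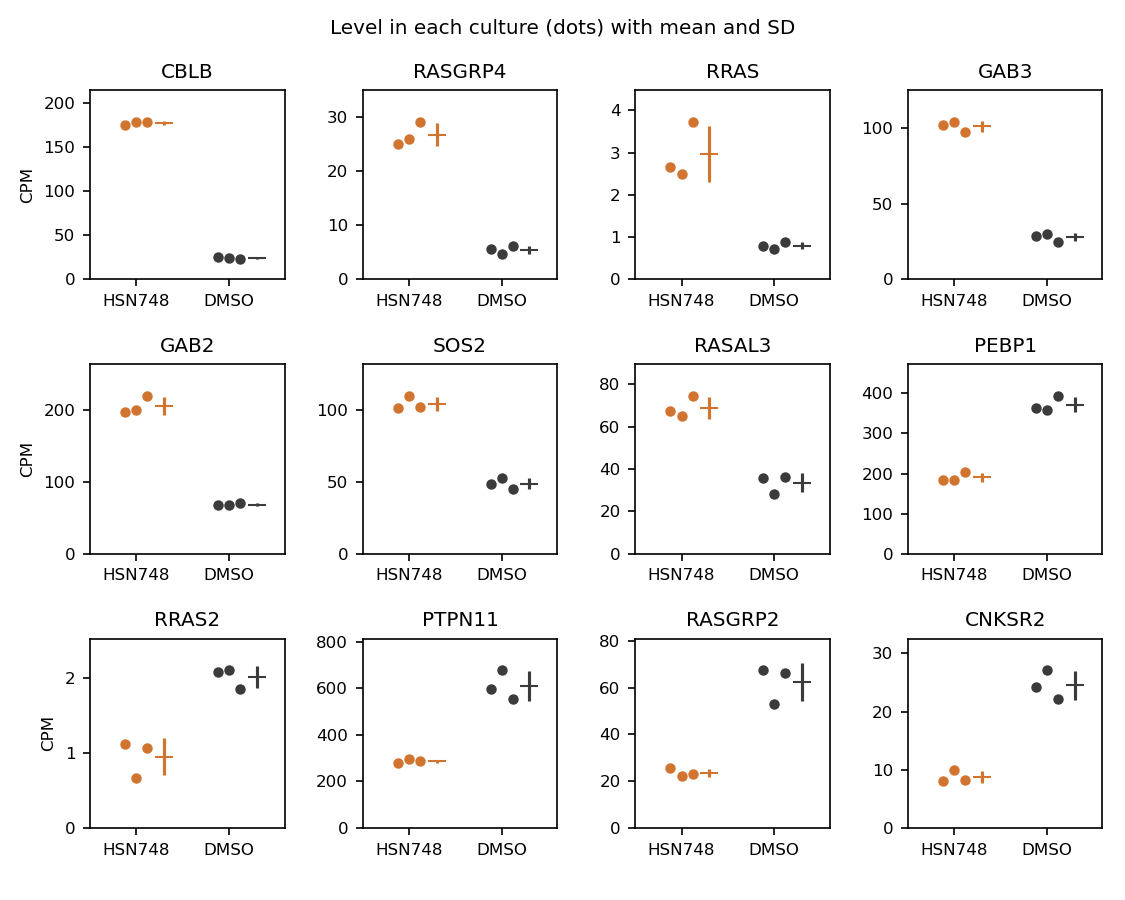
CPM in each culture (dots) with the mean and SD, HSN748 left of DMSO, for the 11 called genes and PEBP1, each panel on its own axis from 0. In all 12 panels the 3 HSN748 cultures lie wholly on 1 side of the 3 DMSO cultures.

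The RAS-family GTPases moved in different directions. NRAS, on chromosome 1 from 114704469 to 114716771, was the most abundant of the 4 measured, at 177, 186 and 170.2 CPM in HSN748-treated cells, against 231, 257 and 196 CPM in DMSO controls. All treated cultures were below all controls, with a log2 fold change of -0.36 (SE 0.10 and adjusted p = 0.0099), but it did not pass with the total count (-0.24) or upper-quartile factors (-0.15), and with the reference genes it was 0.11. MRAS, which forms a RAF-activating phosphatase complex with SHOC2, was at 58.6 ± 3.79 CPM in HSN748-treated cells and 37.5 ± 2.39 CPM in DMSO controls (SD, n = 3 each) and rose by 0.65 on the log2 scale (adjusted p = 1.3e-04). RRAS and RRAS2 are close relatives of the classical RAS proteins, and both were near the bottom of the list in level.

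RRAS, on chromosome 19 from 49635292 to 49640143, was at 2.66, 2.50 and 3.73 CPM in HSN748-treated cells, against 0.798, 0.708 and 0.882 CPM in DMSO controls, a log2 fold change of 1.90 (SE 0.23 and adjusted p = 6.8e-05). RRAS2, on chromosome 11 from 14277920 to 14364506, was at 1.12, 0.664 and 1.07 CPM in HSN748-treated cells, against 2.08, 2.10 and 1.85 CPM in DMSO controls, a log2 fold change of -1.07 (SE 0.23 and adjusted p = 0.0027). The pair thus passed in opposite directions, and RRAS was 8.78 times RRAS2 per kilobase in HSN748-treated cells and 1.10 times RRAS2 in DMSO controls. RRAS2 was the least abundant listed gene per length by the mean of both groups, and without HSN748 replicate 8 its log2 fold change was -0.86.

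The kinases of the cascade itself changed little. BRAF, on chromosome 7 from 140719337 to 140924929, was at 80.6, 86.4 and 77.0 CPM in HSN748-treated cells, against 66.1, 75.9 and 61.0 CPM in DMSO controls, a log2 fold change of 0.27 (SE 0.09 and adjusted p = 0.03). Its groups lay close together without overlap, and BRAF did not pass without DMSO replicate 1 (adjusted p = 0.098), DMSO replicate 3 (0.064), HSN748 replicate 7 (0.055) or HSN748 replicate 8 (0.086). ARAF, the other RAF kinase measured, had a log2 fold change of 0.01 (SE 0.11 and adjusted p = 0.94). MAP2K1, which encodes MEK1 and lies on chromosome 15 from 66386873 to 66491544, was at 65.1, 68.4 and 70.6 CPM in HSN748-treated cells, against 71.3, 72.1 and 76.0 CPM in DMSO controls, a log2 fold change of -0.10 (SE 0.07 and adjusted p = 0.2). It shares 231 of its 2586 exon bases with SNAPC5 on the opposite strand, which had a log2 fold change of -0.29. MAPK3, which encodes ERK1 and lies on chromosome 16 from 30114105 to 30123309, was at 8.50, 8.71 and 9.95 CPM in HSN748-treated cells, against 8.05, 6.70 and 10.4 CPM in DMSO controls, and the treated cultures lay inside the range of the controls (log2 fold change 0.12, SE 0.16 and adjusted p = 0.53). MAP2K2, which encodes MEK2, had a log2 fold change of 0.36 (SE 0.17 and adjusted p = 0.081) with overlapping groups. It passed without DMSO replicate 3 at 0.56 (adjusted p = 0.0011), with the total count at 0.49, with upper-quartile factors at 0.56 and with a minimum of 5 CPM at 0.45. With the reference genes MAP2K1, MAP2K2, MAPK3 and ARAF were at 0.38, 0.85, 0.60 and 0.49 and passed, against the median of 0.48 over all genes.

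The scaffolds hold kinases of the cascade together. CNKSR2, a connector of RAS and RAF known mainly from neurons, had the largest fall of the list. It lies on chromosome X from 21374418 to 21654689 and was at 8.10, 9.96 and 8.20 CPM in HSN748-treated cells, against 24.2, 27.1 and 22.2 CPM in DMSO controls. Its log2 fold change was -1.49 (SE 0.12 and adjusted p = 6.2e-06), with no treated culture near a control. KSR1, which binds RAF, MEK and ERK, was at 15.1 ± 0.787 CPM in HSN748-treated cells and 18.4 ± 1.18 CPM in DMSO controls (SD, n = 3 each), a log2 fold change of -0.29 (adjusted p = 0.022). This did not pass with the total count (-0.16), upper-quartile factors (-0.08) or a minimum of 5 CPM (-0.20), nor without DMSO replicate 1 (adjusted p = 0.086), HSN748 replicate 8 (0.099) or HSN748 replicate 9 (0.068), and it was 0.19 with the reference genes. SHOC2, the partner of MRAS, had a log2 fold change of 0.0047 (SE 0.10 and adjusted p = 0.97), and passed with the reference genes at 0.48, the median of all genes under that scaling.

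**Figure D4:**
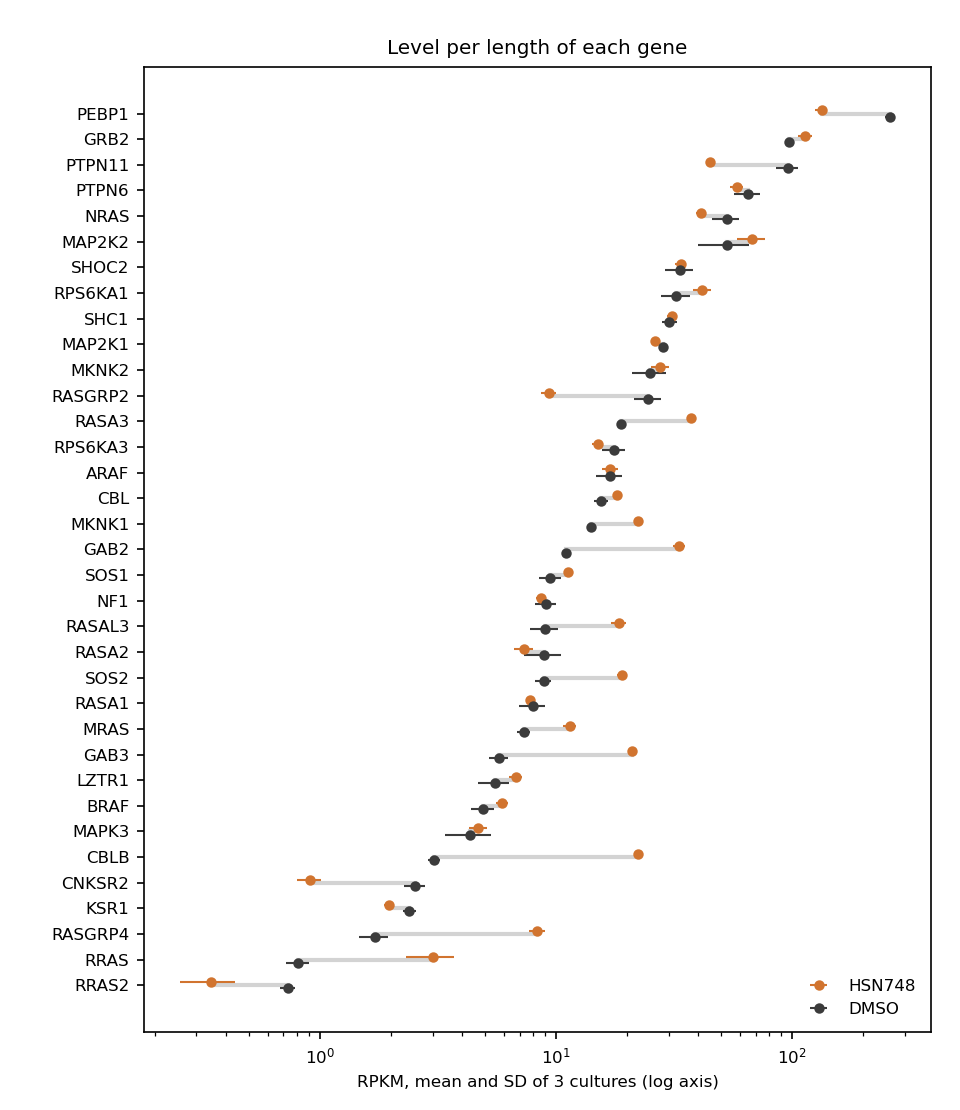
RPKM of the 35 genes on a log axis (CPM divided by gene length in kilobases, mean and SD of 3 cultures), with HSN748 and DMSO joined by a grey line and genes ordered by their DMSO level. PEBP1, at 133 RPKM in HSN748-treated cells and 260.2 RPKM in DMSO controls, is the highest, and CBLB has the longest line.

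GAPs switch RAS off, and 2 of the 5 listed passed as higher, beside 36.6% of all genes. RASA3, a GAP for RAS and RAP1 on chromosome 13 from 113977783 to 114132623, was at 352, 354 and 369.8 CPM in HSN748-treated cells, against 181, 175 and 190.5 CPM in DMSO controls, a log2 fold change of 0.98 (SE 0.07 and adjusted p = 2.2e-06), just under the fold threshold. RASA3 was past that threshold with the total count (1.10), upper-quartile factors (1.18), the reference genes (1.46) and a minimum of 5 CPM (1.06), and without DMSO replicate 3 (1.01), HSN748 replicate 7 (1.01) or HSN748 replicate 8 (1.002). RASAL3, a GAP of blood cells on chromosome 19 from 15451625 to 15464544, was at 67.2, 64.9 and 74.6 CPM in HSN748-treated cells, against 35.8, 28.3 and 36.4 CPM in DMSO controls, a log2 fold change of 1.04 (SE 0.11 and adjusted p = 3.5e-05), just past it. In both genes every treated culture was above every control, and the RASA3/RASAL3 ratio overlapped between groups. NF1, the GAP lost in neurofibromatosis, on chromosome 17 from 31094927 to 31377677, was at 119, 109 and 113 CPM in HSN748-treated cells, against 122, 131 and 107 CPM in DMSO controls, and did not pass (log2 fold change -0.08, SE 0.09 and adjusted p = 0.45). RASA1, at -0.05, and RASA2, at -0.29, did not pass either, although RASA2 passed without DMSO replicate 3, at -0.42 (adjusted p = 0.0021). RASA1 shares 1127 of its 4821 exon bases with CCNH on the opposite strand, which had a log2 fold change of -0.43. RefSeq names 12 pseudogenes of NF1, none of them a row of the table. Summed per length, a measure chosen after the values were seen, the 5 GAPs came to 78.0 to 81.1 RPKM in HSN748-treated cells and 51.9 to 55.0 RPKM in DMSO controls, while the 4 exchange factors came to 47.3 to 48.6 RPKM in HSN748-treated cells and 42.3 to 46.7 RPKM in DMSO controls. The exchange factors were thus 0.587 to 0.624 times the GAPs in HSN748-treated cells and 0.769 to 0.864 times the GAPs in DMSO controls. The groups did not overlap, and RASA3 alone made up 37.2 RPKM of the GAP sum in HSN748-treated cells and 18.9 RPKM in DMSO controls. Among the exchange factors, RASGRP2, which acts mainly on RAP1, made up 9.31 RPKM in HSN748-treated cells and 24.6 RPKM in DMSO controls. From DMSO controls to HSN748-treated cells SOS1 went from 9.461 to 11.24, SOS2 from 8.855 to 18.99 and RASGRP4 from 1.705 to 8.332 RPKM. The lower ratio in HSN748-treated cells thus depends on RASGRP2. Deposited positions of RASA3 lie on 2 reference sequences, and whether its length of 9644 bases counts both was not tested. If so, its RPKM and the GAP sums are too low, and the exchange factor ratios too high. The sums hold listed genes only. Outside the list, the GAPs RASAL2 (log2 fold change 0.79) and RASA4 (2.58) were higher and DAB2IP (-3.61) was lower.

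The other negative regulators act on RAF and on RAS protein levels. PEBP1 (RKIP), which binds RAF and blocks its access to MEK, was the most abundant listed gene per length and lies on chromosome 12 from 118136124 to 118145584. It was at 185, 184 and 203 CPM in HSN748-treated cells, against 365, 359 and 394 CPM in DMSO controls, a log2 fold change of -0.97 (SE 0.08 and adjusted p = 4.5e-06). Among the listed negative regulators PEBP1 was the only one that passed as lower. Inhibitors outside the list, such as SPRY4 and DAB2IP, were lower too. LZTR1, an adaptor that directs RAS proteins to ubiquitination, had a log2 fold change of 0.29 (SE 0.12 and adjusted p = 0.053). It passed with DESeq2 (adjusted p = 0.045), with limma-voom (0.046), without DMSO replicate 3 (0.018), with a minimum of 5 CPM (0.38, adjusted p = 0.02), with the total count (0.42, adjusted p = 0.011), with upper-quartile factors (0.50, adjusted p = 0.0061) and with the reference genes (0.77, adjusted p = 8.8e-05).

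The 4 listed kinases activated by ERK had log2 fold changes between -0.23 and 0.67, with a median of 0.26, which was 0.15 without DMSO replicate 2. MKNK1, which phosphorylates the cap-binding factor eIF4E, was at 66.2, 66.0 and 62.6 CPM in HSN748-treated cells, against 40.0, 39.9 and 42.9 CPM in DMSO controls, and rose by 0.67 on the log2 scale (SE 0.07 and adjusted p = 3.8e-05). MKNK2, its relative, had a log2 fold change of 0.14 and did not pass (adjusted p = 0.31), but passed without DMSO replicate 3 at 0.26 (adjusted p = 0.033), with upper-quartile factors at 0.35 and with the reference genes at 0.63. The ribosomal S6 kinases RPS6KA1 and RPS6KA3 passed in opposite directions. RPS6KA1 was at 284, 271 and 319 CPM in HSN748-treated cells, against 223, 195 and 258 CPM in DMSO controls. Its log2 fold change was 0.37 (SE 0.11 and adjusted p = 0.014), and it did not pass without HSN748 replicate 9 (adjusted p = 0.058). RPS6KA3 was at 116, 127 and 116 CPM in HSN748-treated cells, against 145, 154 and 123 CPM in DMSO controls, a log2 fold change of -0.23 (SE 0.09 and adjusted p = 0.046). The RPS6KA3 groups overlapped. It passed without DMSO replicate 3 (adjusted p = 0.0025) but did not pass when any 1 of the other 5 cultures was left out (adjusted p up to 0.16). It did not pass with the total count (-0.11), upper-quartile factors (-0.03) or the 5 CPM minimum (-0.15), and was 0.24 with the reference genes.

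Of 12 ratios between related genes, 9 did not overlap between the groups, which is near the 75.4% of all single genes that did not. With 3 cultures against 3 an exact two-sided permutation test cannot go below p = 0.1, which these 9 reached (adjusted p = 0.13 over 12 pairs), so that the ratios are given as values with their spread. The ratios that moved most were RASGRP2/RASGRP4, by -3.69 on the log2 scale, RRAS/RRAS2, by 2.99, and CBL/CBLB, by -2.66. The smallest shifts were RASA1/NF1, by 0.03, and RASA3/RASAL3, by -0.07. The ratio MAP2K1/MAP2K2 was 0.391 in HSN748-treated cells and 0.547 in DMSO controls.

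Other genes of the pathway were taken from lists chosen by role, and their counts stand beside the 73.1% of all genes that passed (36.6% higher and 36.5% lower). Among 14 measured output and feedback genes of ERK, 12 were lower and 2 were higher, with a median log2 fold change of -2.08. ETV4, an ETS factor, and SPRY4, a feedback inhibitor of RAS activation, had log2 fold changes of -6.43 (adjusted p = 2.2e-08) and -4.14 (adjusted p = 3.6e-08). The 2 higher genes were SPRED3, at 2.68 (adjusted p = 7.7e-06), and PHLDA1, at 0.42 (adjusted p = 0.02). The cascade kinases above thus kept their RNA level to within 0.36 on the log2 scale while 12 of these 14 outputs were lower. Of 9 genes for the processing and trafficking of RAS proteins, 2 passed as higher and 4 as lower, or 66.7% in all, below that share. ICMT, which methylates the RAS C terminus, was at -1.58 (adjusted p = 2.2e-07), and GOLGA7, a subunit of the RAS palmitoyltransferase, was at 0.70 (adjusted p = 2.4e-05). Of 8 further exchange factors and GAPs, 6 passed as higher and 1 as lower, most of them at low levels. RASGRF2, an exchange factor, was at 2.54 CPM in HSN748-treated cells and 0.223 CPM in DMSO controls (adjusted p = 4.2e-06), and DAB2IP, a RAS GAP, at 0.154 CPM in HSN748-treated cells and 1.91 CPM in DMSO controls (adjusted p = 6.4e-06). Among 10 genes of RAF-linked phosphatases and 14-3-3 proteins, which bind phosphorylated RAF, 6 passed as lower and 0 as higher (60% in all), with YWHAH at -1.07 (adjusted p = 2.9e-06) and YWHAQ at -0.88 (adjusted p = 4.1e-06).

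Of 6 other adaptors and scaffolds 3 were higher and 3 did not pass (50% passed, below the share of all genes), with DOK3 at 0.55 (adjusted p = 7.4e-04) and DOK1 at 0.36 (adjusted p = 0.017), both docking proteins that restrain RAS signaling. Of 8 other RAS effectors 3 passed as higher and 1 as lower (again 50%), with RALGDS, which activates RAL GTPases, at 0.63 (adjusted p = 2.9e-04) and RALB at 0.41 (adjusted p = 5.7e-04). The 3 other measured kinases downstream of ERK were all higher, with RPS6KA2, a further ribosomal S6 kinase, at 2.08 (adjusted p = 1.4e-07) and RPS6KA5 at 0.68 (adjusted p = 0.0015).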

How the data were processed

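The table deposited by the authors holds whole-number counts for 13244 genes and gene lengths in bases (other columns hold log values and their own fold changes and p-values, which were not used). In the submitters' processing notes, bcl2fastq and STAR are named. For versions, counting program, strand setting, annotation and build, the entry is: not given in the sources used here. P-values measure the spread between these cultures. All 35 listed genes lay on the RefSeq GRCh38.p14 chromosome, 26 with the same start.

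Counts were filtered with filterByExpr (160 genes removed, 13084 kept), scaled with TMM and tested with edgeR 4.0.16 (R 4.3.3) with treatment as the only term. The SE is the size of the log2 fold change divided by the square root of F. Common biological variation was 11.2%. RPKM and within-library ratios used the deposited lengths, and exact permutation tests scipy 1.17.1. For RASA3 and RPS6KA1 the deposited positions lie on 2 reference sequences each, and their lengths may count both, which was not tested. Members, roles, pairs and lists were chosen with earlier results of these data known. Named genes were all members, with values in every culture for called genes, NRAS, BRAF, MAP2K1, MAPK3, PTPN11, NF1 and pairs that passed in opposite directions, and the 2 smallest p-values of each further list. Some further genes were given values by culture after these were seen. Alternatives were DESeq2 1.42.0, limma-voom (limma 3.58.1), other scalings, filters and thresholds, and leaving out each culture. Promoter windows came from RefSeq.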

Additional observations from a re-analysis of the deposited data

How the results depend on the processing

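No paired analysis was possible because the groups share no replicate number. All 11 called genes kept their direction and an adjusted p below 0.05 in every alternative that tested them. A mean of at least 5 CPM left out RRAS and RRAS2. The fold threshold was lost by RRAS2, RASGRP2 and PTPN11 with the reference genes (-0.60, -0.92 and -0.62), by RRAS2 and PTPN11 with the total count and upper-quartile factors, by RASAL3 without DMSO replicate 2 or HSN748 replicate 9, and by RRAS2 without HSN748 replicate 8. It was gained by RASA3 in the 7 settings given above, by MRAS (1.13) and MKNK1 (1.15) with the reference genes, and by PEBP1 (-1.01) without HSN748 replicate 9. Of 35 genes, 15 kept direction and side of the threshold throughout.

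With the reference genes 26 members were higher and 5 lower. With the total count, upper-quartile factors and the 5 CPM minimum 5 were lower. Over the left-out cultures 11 to 15 were higher and 6 to 9 lower. The 5 CPM minimum gave 2568 called genes among fewer tested. Called genes numbered 3823 higher and 1046 lower with the reference genes, 2809 and 1488 with upper-quartile factors, 2551 and 1676 with the total count, against 2230 and 1949. The median of the positive components was 0.60 with the reference genes, 0.32 with upper-quartile factors, 0.24 with the total count and 0.21 with the 5 CPM minimum. That of the negative regulators was 0.56, 0.29, 0.21 and 0.17 in the same order, and 0.046 to 0.12 over the left-out cultures. That of the downstream kinases was 0.74 with the reference genes and 0.46 with upper-quartile factors. Over the left-out cultures the positive components ranged from 0.052 to 0.18 and the downstream kinases from 0.15 to 0.37.

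With the reference genes KSR1 was at 0.19, MAP2K1 at 0.38, NF1 at 0.40, NRAS at 0.11, PTPN6 at 0.32, RASA1 at 0.42, RASA2 at 0.19 and RPS6KA3 at 0.24. With upper-quartile factors MAP2K1 was at 0.10, NF1 at 0.13, PTPN6 at 0.044 and RASA1 at 0.16. With the total count MAP2K1 was at 0.021, NF1 at 0.047 and RASA1 at 0.075, and with the 5 CPM minimum NF1 was at 0.010 and RASA1 at 0.036. SHOC2 was at -0.0033 with DESeq2 and with RLE factors. Over the left-out cultures ARAF ranged from -0.086 to 0.083, MAPK3 from -0.017 to 0.29, RASA1 from -0.13 to 0.048, SHC1 from -0.010 to 0.10 and SHOC2 from -0.093 to 0.10. The cause was not tested. All 12 ratios stayed within 1 SD. RRAS and RRAS2 rest on 30 to 185 and on 25 to 120 counts per library.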
